A study of Mus musculus with 10 samples.

Results

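Border macrophage marker genes are 10 transcripts used to mark the macrophages of the meninges, the vessel walls and the connective tissue sheaths of the nervous system, set apart from the microglia inside the tissue. The 10 genes (Mrc1, Cd163, Stab1, Lyve1, F13a1, Pf4, Cbr2, Dab2, Ms4a7 and Maf) were taken as a fixed list of symbols. All 10 were found among the 16620 genes that held at least 1 unique molecular identifier (UMI, the tag that counts 1 captured transcript). They were followed through droplet single-cell RNA sequencing of 1168 macrophages and microglia of mouse optic nerve and retina. Injured optic nerve (libraries 1 and 3) came from mice of age 10 weeks whose nerve had been crushed at 8 weeks, a lesion of the retinal ganglion cell axons, and it was compared with uninjured optic nerve (libraries 2 and 4). Injured retina (the pool of samples 1 and 2, and the pool of samples 3 and 4) was compared with uninjured retina (libraries 5 and 6). All groups were wild type mice of the 129S1/SvlmJ strain, of both sexes. The sample labels give the age as P56.

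Each group had 2 libraries, which are the unit of replication, and nothing in the labels says that they came from separate animals. The p-values below therefore measure the spread between these libraries, which may be technical. The libraries held 146 and 682 cells in injured optic nerve, 103 and 28 in uninjured optic nerve, 109 and 57 in injured retina, and 31 and 12 in uninjured retina. Their UMI totals ran from 56838 to 5234954, and the median cell held from 1159 to 12989 UMIs. Levels are given as CPM, meaning UMIs for each 1000000 counted in that library. The labels call all cells microglia or macrophages, but 39 retina cells carried T cell markers, and 62 optic nerve cells carried oligodendrocyte and 7 endothelial markers. 2 cell barcodes were shared, both between the injured optic nerve libraries.

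Border macrophages are long-lived phagocytes that sample fluid and proteins at the edges of the brain, the nerve and the retina. They take up sugar-coated proteins, haemoglobin complexes and hyaluronan through scavenger and lectin receptors, and many of them present antigen on MHC class II. Microglia of the healthy tissue carry little of most of these receptors and are told apart by P2ry12 and Tmem119.

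Upstream sequences of 4 of the genes are shown because Mrc1, F13a1 and Cbr2 were seen together in single cells, whereas Pf4 was also seen without them. They span 300 bases, mostly before the transcript start, were taken from RefSeq (build GRCm38.p6), and are written 5′ to 3′ on the strand of the gene. Capitals mark 3 short motifs searched on both strands: GAGGAA, as bound by PU.1, the half-site TGCTGA, as bound by MAF factors, and TTGCNNAA, as bound by C/EBP factors. On the other strand these read TTCCTC for the first and TCAGCA for the second. No matches overlapped in these 4 windows.
Mrc1, chr2:14229164-14229463, plus strand: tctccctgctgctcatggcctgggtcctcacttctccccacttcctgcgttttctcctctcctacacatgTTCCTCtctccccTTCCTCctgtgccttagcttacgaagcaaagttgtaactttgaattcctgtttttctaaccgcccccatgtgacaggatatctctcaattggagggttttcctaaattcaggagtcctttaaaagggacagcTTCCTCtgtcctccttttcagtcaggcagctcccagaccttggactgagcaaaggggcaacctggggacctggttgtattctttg
F13a1, chr13:37050195-37050494, minus strand: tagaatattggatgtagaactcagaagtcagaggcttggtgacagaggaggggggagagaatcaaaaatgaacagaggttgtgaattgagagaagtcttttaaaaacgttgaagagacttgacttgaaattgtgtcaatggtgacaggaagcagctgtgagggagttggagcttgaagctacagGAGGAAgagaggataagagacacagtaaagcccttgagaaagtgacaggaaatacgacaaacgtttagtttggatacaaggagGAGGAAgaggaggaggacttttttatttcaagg
Cbr2, chr11:120731972-120732271, minus strand: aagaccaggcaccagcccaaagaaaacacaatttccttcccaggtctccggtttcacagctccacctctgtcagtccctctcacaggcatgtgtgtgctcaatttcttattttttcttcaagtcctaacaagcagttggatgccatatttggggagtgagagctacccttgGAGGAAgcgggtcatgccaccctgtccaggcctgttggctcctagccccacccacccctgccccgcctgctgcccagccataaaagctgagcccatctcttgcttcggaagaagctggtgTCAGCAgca
Pf4, chr5:90772185-90772484, plus strand: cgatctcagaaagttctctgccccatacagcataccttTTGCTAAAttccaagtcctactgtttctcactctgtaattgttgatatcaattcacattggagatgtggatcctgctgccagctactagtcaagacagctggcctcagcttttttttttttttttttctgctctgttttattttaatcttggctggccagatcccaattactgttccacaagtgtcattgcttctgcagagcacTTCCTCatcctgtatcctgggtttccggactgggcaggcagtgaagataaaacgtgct
The table held 11 promoters for 8 of the 10 genes, and Maf and Lyve1 had none in it. GAGGAA occurred in 9 of these 11 promoters and in 28.3% of all 32851 mouse promoters in the table. TGCTGA occurred in 3 of the 11 and in 19.5% of all, and TTGCNNAA in 2 of the 11 and in 10.8% of all. A match describes letters in a window and was not tested as a binding site.

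The endocytic receptors come first. Mrc1 (chromosome 2, 14229392 to 14332057, GRCm38, plus strand) encodes the mannose receptor. Its level was 289 CPM in library 1 and 26.4 CPM in library 3 of injured optic nerve, against 845 CPM in library 2 and 107 CPM in library 4 of uninjured optic nerve. Injured retina had 0 and 41.8 CPM, and uninjured retina had 0 in both libraries. The optic nerve groups overlapped, since injured library 1 lay above uninjured library 4. Cells with an Mrc1 UMI made up 5.48% and 4.25% of the injured optic nerve libraries, against 40.8% and 3.57% of the uninjured ones. The 3.57% in library 4 is 1 of 28 cells, with an exact 95% interval of 0.0904% to 18.3% (Clopper-Pearson). Like all intervals and limits here, it covers counting error only.

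Cd163 (chromosome 6, 124304656 to 124330527, plus strand), the receptor for haptoglobin and haemoglobin, stood at 40.8 and 1.34 CPM in injured optic nerve, against 168 and 71.3 CPM in uninjured optic nerve. It was the only 1 of the 10 genes for which both injured optic nerve libraries lay below both uninjured ones, a pattern that 24.3% of 11248 genes showed. Stab1 (chromosome 14, 31139013 to 31168641, minus strand), a scavenger receptor for modified proteins, was present in every library. Its level was 129 and 48.7 CPM in injured optic nerve, against 558 and 71.3 CPM in uninjured optic nerve, and 34.5 and 41.8 CPM in injured retina, against 77.0 and 141 CPM in uninjured retina. Both injured retina pools lay below both uninjured retina libraries, as they did for Maf, beside 18.1% of 11094 genes. Lyve1 (chromosome 7, 110850607 to 110863239, minus strand), a hyaluronan receptor of perivascular and lymphatic cells, had 107 and 0 CPM in injured optic nerve, against 393 and 35.7 CPM in uninjured optic nerve. Library 3 had 0 Lyve1 UMIs in 682 cells, which allows a share of cells with a UMI of up to 0.440%, whereas library 1 had 5 such cells of 146 and library 2 had 19 of 103.

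**Figure D1:**
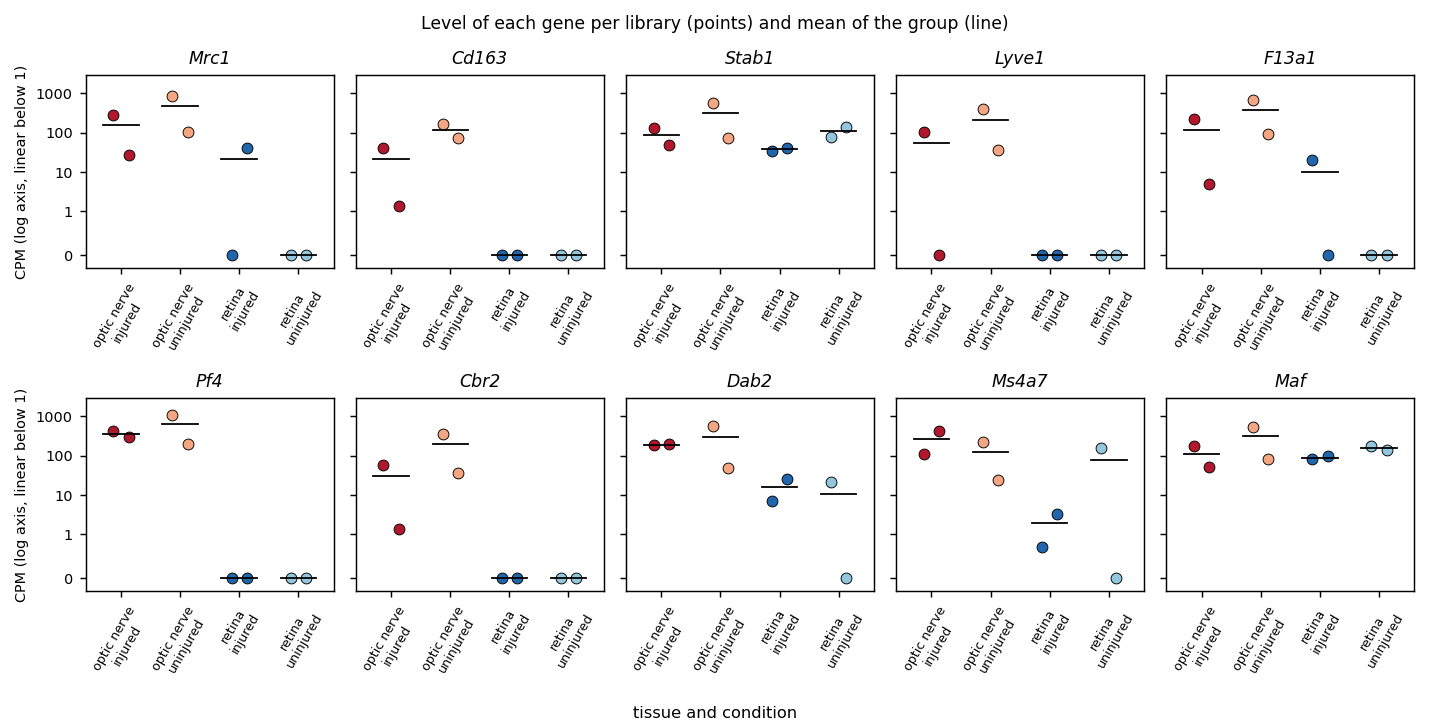
Level in CPM (log axis, linear below 1) of each of the 10 genes in the 8 libraries, with points for libraries and a line for the mean of the group. Cbr2, Pf4, Cd163 and Lyve1 are at 0 in all retina libraries, and within both optic nerve groups the libraries lie far apart for most genes.

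Among the secreted and enzymatic members, library 2 was again the highest. F13a1 (chromosome 13, 36867178 to 37050244, minus strand), the A chain of clotting factor XIII, had 223 and 4.97 CPM in injured optic nerve, against 680 and 95.1 CPM in uninjured optic nerve. In retina it had 29 UMIs in 3 cells of the injured pool of samples 1 and 2 (20.4 CPM) and 0 in the other 3 libraries. Pf4 (chromosome 5, 90772435 to 90773383, plus strand), a chemokine of platelets and macrophages, was the most uniform of this group, at 424 and 306 CPM in injured optic nerve, against 1099 and 202 CPM in uninjured optic nerve. Its cells nonetheless differed between the injured libraries, with 6.16% of cells in library 1 and 36.2% in library 3. The 5 platelet genes together summed to 9.41 and 3.25 CPM in injured optic nerve, against 2.85 and 23.8 CPM in uninjured optic nerve, and their part in the Pf4 level was not tested. Cbr2 (chromosome 11, 120729489 to 120732114, minus strand), a carbonyl reductase, had 59.6 and 1.34 CPM in injured optic nerve, against 359 and 35.7 CPM in uninjured optic nerve.

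The adaptor, membrane and nuclear members all had UMIs in retina as well as in optic nerve. Dab2 (chromosome 15, 6299788 to 6440712, plus strand), an adaptor of clathrin endocytosis, had 191 and 194 CPM in injured optic nerve, against 561 and 47.6 CPM in uninjured optic nerve. Injured retina had 7.04 and 25.7 CPM of Dab2, against 21.0 and 0 CPM in uninjured retina. Ms4a7 (chromosome 19, 11321039 to 11336146, minus strand), a membrane protein of the MS4A family, was the 1 gene that peaked in an injured library, at 113 CPM in library 1 and 413 CPM in library 3, against 222 and 23.8 CPM in uninjured optic nerve. Library 3, which held 66.1% of all UMIs, carried 93.9% of all Ms4a7 UMIs and 74.9% of all Pf4 UMIs, but 25.1% of those of Mrc1 and 6.97% of those of F13a1. Maf (chromosome 8, 115682942 to 115707794, minus strand), a transcription factor of macrophages and some T cells, was the most even over tissues. Its level was 176 and 50.6 CPM in injured optic nerve, against 549 and 83.2 CPM in uninjured optic nerve, and 81.6 and 96.5 CPM in injured retina, against 175 and 141 CPM in uninjured retina.

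Some of these loci overlap other gene models, and whether counting used the strand is not given in the sources used here. Stab1 overlaps the coding gene Nt5dc2 on the opposite strand. F13a1, Dab2 and Maf overlap antisense models, Dab2 also a pseudogene, and Mrc1 holds the microRNA gene Mir511. The other 5 genes overlap no other gene in GENCODE release M21.

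Injury in optic nerve addressed whether the marker set changed 2 weeks after crush. 9 of the 10 genes had a negative difference, injured minus uninjured, beside 60.7% of all genes, and none of the 10 passed the limma test. Over 8 libraries, limma on the mean ln value (the natural log of 1 plus UMIs per 10000 of a cell) tested 10556 genes with a UMI in both tissues and called 0.152% of them at an adjusted p of 0.05. These included 6 of the 10 genes, of which 0 were called, with 3 of 6 at an unadjusted p under 0.05, beside 7.45% of all genes. edgeR on recovered counts, which called 1.81% of the genes, also called 0 of these 6, with 5 of 6 at an unadjusted p under 0.05, beside 10.8% of all genes. In ln units the differences were -0.45 ± 0.21 (SE) for Mrc1, -0.38 ± 0.17 for F13a1, -0.34 ± 0.15 for Stab1 and -0.32 ± 0.16 for Maf. Dab2 stood at -0.09 ± 0.20 and Ms4a7 at 0.16 ± 0.15. The median of the 6 was -0.33, beside -0.01 over all genes tested. Their limma adjusted p-values were lowest for F13a1, at 0.639.

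The filter on both tissues left out Cbr2, Pf4, Cd163 and Lyve1, which have no UMI in retina, so the fit was repeated on 11248 genes with a UMI in either tissue, a choice made after seeing the data. That fit called 0.0178% of genes and 0 of the 10, with differences of -0.26 ± 0.12 for Cbr2, -0.15 ± 0.06 for Cd163, -0.21 ± 0.09 for Lyve1 and -0.08 ± 0.20 for Pf4. With edgeR on the recovered UMI counts of those genes, which called 1.6% in all and 0.8% as lower, Cbr2 fell by 3.49 ± 0.88 (log2, adjusted p = 0.0299) and Cd163 fell by 3.35 ± 0.85 (adjusted p = 0.0315). For edgeR, here and below, the value after ± is the size of the difference divided by the square root of its F statistic, not a fitted SE. The Cbr2 groups overlapped, with injured library 1 at 59.6 CPM and uninjured library 4 at 35.7 CPM (3 UMIs in 1 cell). With edgeR on the optic nerve libraries alone, which called 1.45% of 10952 genes and 0.831% as lower, both calls held, at 3.10 ± 0.84 lower for Cbr2 (adjusted p = 0.0436) and 3.10 ± 0.80 lower for Cd163 (adjusted p = 0.0308). Leaving out libraries was not run for these edgeR fits. In the limma fits over both tissues, the retina libraries add no spread for Cbr2, Pf4, Cd163 and Lyve1, which are at 0 there. Their SE is smaller for that reason. The limma differences moved with the uninjured library that was kept, and each such fit has an arm of 1 library, assumed to vary like the other groups. Without library 4, limma called 5 of the 10 genes lower, beside 1.38% of all genes (1.32% lower), with Mrc1 at -0.94 ± 0.08, Cbr2 at -0.52 ± 0.05 and Lyve1 at -0.40 ± 0.05. Without library 2 the median of the 10 differences was -0.0024, and 5 of the 10 were below 0. For 7 of the 10 genes, all UMIs of library 4 came from the same cell, which held 8863 UMIs and at least 2 UMIs of each of the 10 genes.

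**Figure D2:**
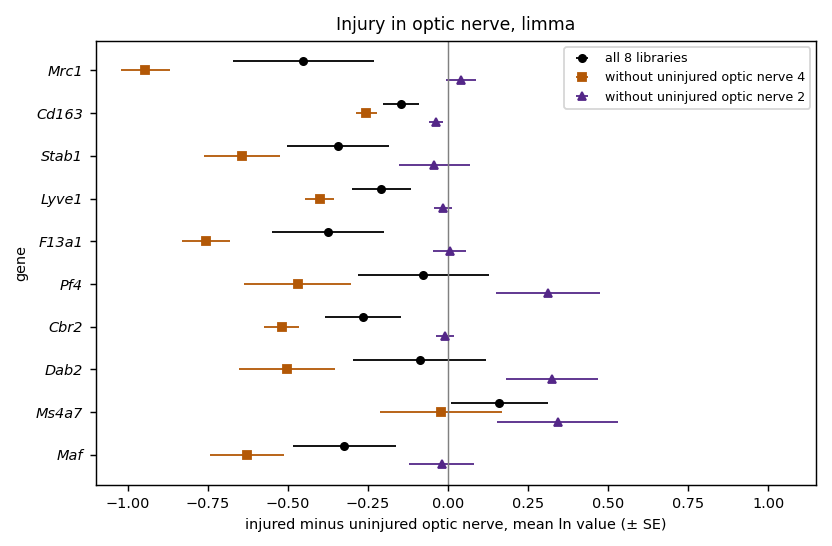
Difference in mean ln value, injured minus uninjured optic nerve, with its standard error (limma, genes with a UMI in either tissue), for each gene with all 8 libraries and without 1 uninjured library. Nearly all points move left without uninjured library 4 and close to or above 0 without uninjured library 2.

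A second list held 30 other border macrophage genes, such as Folr2, Clec10a and Fcna, and 17 were tested in optic nerve. 0 were called in either direction by limma, 12 of 17 were below 0, beside 61.9% of all genes, and their median difference was -0.05 ln units, beside -0.01 over all genes. The smallest p belonged to Igfbp4, a growth factor binding protein, at -0.37 ± 0.08 (limma adjusted p = 0.141), and edgeR on recovered counts called it lower, at -2.50 ± 0.51 on the log2 scale (adjusted p = 0.00252). The 15 microglia genes had 0 calls and a median of -0.08. Oligodendrocyte markers also differed between these libraries, with 1 of 4 tested genes called lower by limma, 10 of 10 genes seen in each library and a summed level of 588 to 3615 CPM in injured optic nerve, against 5682 to 8468 CPM in uninjured optic nerve. Without the cells that carried markers of other types, the median limma difference of the 6 genes was -0.40 ln units, and 0 of the 6 were called. The part of oligodendrocyte transcripts in the differences was otherwise not tested.

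Of the 10 genes, Stab1 and Maf passed edgeR's filter on low counts for injury in retina, and the other 8 did not. Stab1 fell by 1.41 ± 0.45 on the log2 scale (edgeR quasi-likelihood, adjusted p = 0.0464) in a comparison that called 19.7% of 3312 genes, 9.72% of them as lower. Maf had a difference of -0.90 ± 0.36 and an edgeR adjusted p of 0.0995. The Stab1 call was lost with DESeq2 (adjusted p = 0.190), where the difference was -1.43, and when any 1 of the 4 libraries was left out (edgeR differences from -1.61 to -1.11, adjusted p from 0.135 to 0.243). Each of those fits has an arm of 1 library and 3 libraries in all. It was also lost without the cells that carried markers of other types, at -1.11 with an adjusted p of 0.109. T cell marker cells were found in injured retina only, 39 of its 166 cells against 0 of 43 in uninjured retina, and 0 of the 39 had a Stab1 UMI, while 9 had a Maf UMI. Retina cells with a Stab1 UMI held a median of 9.5 and 9 of the 15 microglia genes in the injured pools. In the uninjured libraries they held 11 and 12. For Maf the medians were 9, 7.5, 11 and 12.5, beside 9, 6, 11 and 12 over all cells, in that order. The retina levels of Stab1 and Maf thus include cells with many microglia genes. 10 of 15 microglia genes fell in the same edgeR comparison, such as Olfml3 at -3.86 ± 0.30 (adjusted p = 3.1e-05). Of 9 other border macrophage genes tested there, 1 rose (Colec12, a scavenger receptor) and 3 fell (Hpgd, Gas6 and Ninj1).

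Ms4a7 in retina was a result of 1 library. It had 1 UMI in each injured retina pool, against 22 UMIs in uninjured library 5 and 0 in uninjured library 6. Those 22 UMIs lay in 6 of 31 cells with 1 to 7 UMIs each. These 6 cells held a median of 6 of the 15 microglia genes, whereas the median cell of that library held 11. Without the filter on low counts, edgeR called 5.86% of 12842 genes and gave Ms4a7 a difference of -5.93 ± 0.81 (adjusted p = 1.0e-10). That p does not reflect the spread of the uninjured libraries, at 154 and 0 CPM. Without library 5, Ms4a7 did not enter the test.

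In retina 4 of the 10 genes were not seen. Cbr2, Pf4, Cd163 and Lyve1 had 0 UMIs in all retina cells, which allows a share of cells with a UMI of up to 1.44% and a level of up to 1.73 CPM over both injured pools, or 15.0 CPM over both uninjured libraries. Against those limits of 3 counts per group, Pf4 was at least 181-fold higher in injured optic nerve than in injured retina, and at least 61.6-fold higher in uninjured optic nerve than in uninjured retina. In uninjured tissue the bound was 46.8-fold for Mrc1, 37.7-fold for F13a1, 21.5-fold for Lyve1, 19.7-fold for Cbr2 and 9.93-fold for Cd163, in each case with optic nerve higher. These uninjured bounds are over summed UMIs, most of them from library 2. With library 4 alone they were 13.4-fold for Pf4, 7.12-fold for Mrc1, 6.33-fold for F13a1 and 4.75-fold for Cd163, and Cbr2 and Lyve1 had 3 UMIs each there, too few for a bound. In uninjured tissue 7 of the 10 genes had both optic nerve libraries above both retina libraries, beside 28.3% of 11094 genes, and Stab1, Ms4a7 and Maf overlapped. In injured tissue 6 of the 10 did so, beside 23.5% of genes. The 6 include Cbr2 and Cd163, whose 1.34 CPM each in library 3 lay below the injured retina limit of 1.73 CPM. The injured bounds over summed UMIs were 3.53-fold for Lyve1, 2.70-fold for Cbr2 and 2.08-fold for Cd163. Library 3 alone gave no bound for these genes.

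The test on ln values did not call any of these tissue differences. For uninjured tissue, limma called 4.25% of 10556 genes and 0 of the 6 tested, with 3 of 6 at an unadjusted p under 0.05, beside 21.7% of all genes, and Mrc1 stood at 0.58 ± 0.21 (adjusted p = 0.134). With edgeR on recovered counts, which called 2.49% of genes and 1.49% as higher in optic nerve, Dab2 was 4.45 ± 0.86 higher on the log2 scale (adjusted p = 7.7e-04), and Mrc1 and F13a1 were called higher too. On the genes with a UMI in either tissue, edgeR called 3.72% of genes, 2.01% as higher, and 7 of the 10 genes, all higher. For injured tissue, limma called 5.37% of genes and 0 of the 6. At an unadjusted p under 0.05 stood 1 of the 6, Ms4a7 at 0.38 ± 0.15 (adjusted p = 0.158), beside 20.9% of all genes. edgeR called 6.49% of genes, 3.48% of them as higher, and 4 of these 6. The 4 were Ms4a7 at 7.78 ± 0.95 (adjusted p = 4.8e-08), Dab2 (adjusted p = 2.6e-05), Mrc1 at 3.51 ± 0.90 and F13a1 at 2.72 ± 0.84. On the genes with a UMI in either tissue edgeR called 10.3%, 4.78% as higher, and 7 of the 10, without F13a1 (adjusted p = 0.0516). The difference between the injury effects in optic nerve and retina was called by limma for 1.16% of genes and for 0 of the 6, with 0 of 6 at an unadjusted p under 0.05, beside 19.4% of all genes. In edgeR, which called 1.64%, 1 of the 6 passed, Ms4a7 at 7.29 ± 1.23 (adjusted p = 1.6e-04), and this rests on the retina counts given above.

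Counted cell by cell, the 10 genes came in 2 patterns. In injured library 1 a cell held either 0 to 2 of the genes (138 cells) or at least 6 (8 cells, 5.48%), and 0 cells lay between. In uninjured library 2, 31 of 103 cells (30.1%, interval 21.5% to 39.9%) held at least 6, and 5 of them held all 10. Injured library 3 had no such gap: 169, 107, 74, 49 and 21 of its 682 cells held 1, 2, 3, 4 and 5 genes, and 18 cells (2.64%, interval 1.57% to 4.14%) held at least 6. No retina cell held 6 or more, and the highest count was 5 genes in 1 cell of the injured pool of samples 3 and 4. That cell had 15394 UMIs and held 1 or 2 UMIs each of Mrc1, Stab1, Ms4a7, Dab2 and Maf.

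**Figure D3:**
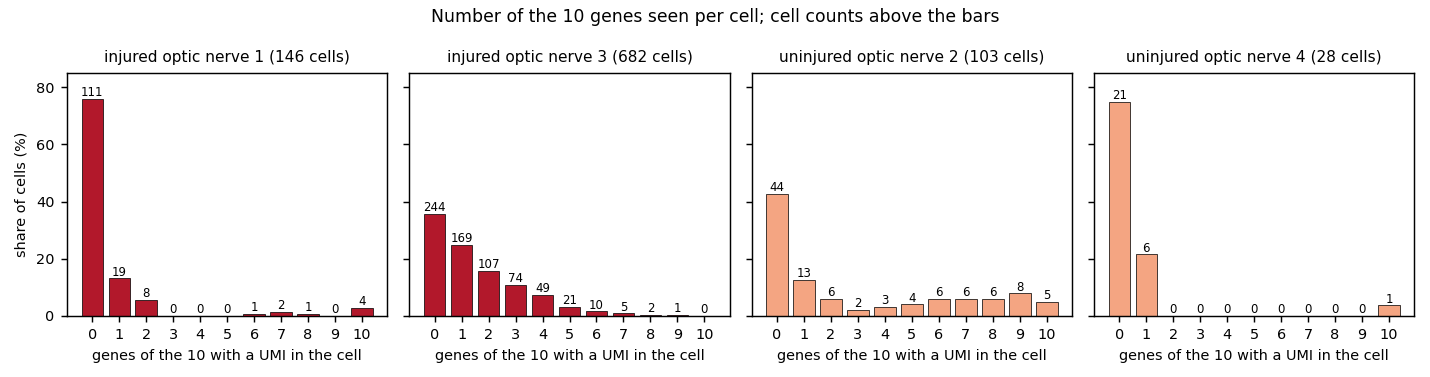
Share of cells (percent) by the number of the 10 genes with at least 1 UMI in the cell, for each optic nerve library, with cell counts above the bars. Injured library 1 and uninjured libraries 2 and 4 have cells at both ends, while injured library 3 declines step by step.

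The share of cells with at least 3 of the genes differed with depth. It was 5.48% and 23.8% in injured optic nerve, against 38.8% and 3.57% in uninjured optic nerve. After each cell was thinned to 1000 UMIs, which kept 80 of 146 and 500 of 682 injured and 84 of 103 and 19 of 28 uninjured cells, the shares were 9.73% and 2.87% in injured optic nerve, against 35.3% and 4.80% in uninjured optic nerve. In library 3 the cells with at least 3 genes had a median of 21746 UMIs, against 1465 for its other cells. Thinning reversed the order of the injured libraries, while library 2 was the highest both before and after it.

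In libraries 1 and 2 most of the other genes were seen together with Mrc1. Cells with Mrc1 were also deeper, at a median of 6052.5 UMIs against 1045.5 in library 1 and 3244 against 1603 in library 2. Depth was not matched, so a gene can go unseen in the other cells for that reason. In injured library 1, 8 cells had an Mrc1 UMI, and F13a1, Stab1 and Maf were each seen in 8 of these 8, Cbr2 and Dab2 in 7, Cd163 in 6 and Lyve1 in 5. Among its 138 cells without Mrc1, F13a1, Cbr2, Cd163 and Lyve1 were seen in 0. Most cells with Ms4a7, Dab2 or Maf in library 1 lacked Mrc1, at 9 of 14, 9 of 16 and 11 of 19. In uninjured library 2, 42 cells had Mrc1. Dab2 was seen in 35 of these 42 and in 3 of the 61 others, F13a1 in 33 and 3, and Ms4a7 in 25 and 0.

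In injured library 3 the set came apart. Its cells with Mrc1 had a median of 10206 UMIs, against 2160 for those without. Of its 29 cells with Mrc1, 23 had Stab1, 22 had Dab2, 22 had Ms4a7 and 15 had Pf4, but 8 had F13a1, 5 had Cd163, 3 had Cbr2 and 0 had Lyve1. Most cells with Pf4, Dab2 or Ms4a7 lacked Mrc1 there: 232 of 247 Pf4 cells, 252 of 274 Dab2 cells and 194 of 216 Ms4a7 cells. The 113 cells with both Pf4 and Ms4a7 compare with 78.2 given by the product of their 2 shares, and depth differs between cells, so that ratio is a description. The 144 cells of this library with 3 to 5 of the genes were seen with Dab2 in 133, Ms4a7 in 118, Pf4 in 101, Maf in 93 and Stab1 in 69. They were seen with Mrc1 in 7, F13a1 in 1, Cbr2 in 1, and Cd163 and Lyve1 in 0.

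**Figure D4:**
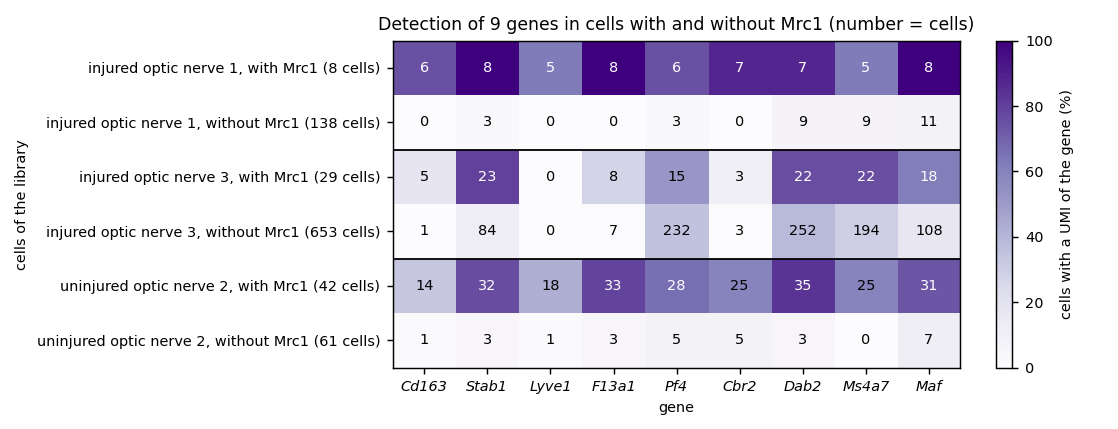
Share of cells (percent, colour) with a UMI of each of 9 genes, in cells with and without Mrc1 of injured libraries 1 and 3 and uninjured library 2, with the number of cells written in. Libraries 1 and 2 are dark in the rows with Mrc1 and pale without it. Cells with Mrc1 held more UMIs in each of these libraries, and depth was not matched. In library 3, Pf4, Dab2 and Ms4a7 are seen in 29.7% to 38.6% of cells without Mrc1.

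Cells with at least 6 of the genes also carried the other border macrophage genes. Cells with T cell, oligodendrocyte or endothelial markers were left out here, but not those with fibroblast or neutrophil markers. In library 2 this took out 6 of the 31 cells with at least 6 genes. Since the strata were built from the same cells, these levels are given without a test. The 30 genes of that list summed to 10739 CPM in such cells of injured library 1 (7 cells), 4135 CPM in injured library 3 (18 cells) and 11489 CPM in uninjured library 2 (25 cells). In cells with none of the 10 genes the sums were 790, 1082 and 1653 CPM, in the same order of libraries. The 15 microglia genes ran the other way, at 754 CPM in library 1, 4261 CPM in library 3 and 1234 CPM in library 2, against 8553, 6325 and 10882 CPM in cells with none of the 10. In library 2 the cells with none also held 4937 CPM of fibroblast and 5752 CPM of neutrophil markers, so they are a mixed reference. Its cells with at least 6 held 49.1 and 63.1 CPM of these. In library 3, cells with 3 to 5 of the genes held 7838 CPM of the microglia genes and 1452 CPM of the border list, close to its cells with none.

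Single genes of these lists differed between the libraries. Folr2, a folate receptor, had 837 CPM in the cells with at least 6 genes in library 1, 21.7 CPM in library 3 and 869 CPM in library 2. Fcna, a ficolin, had 419 CPM in library 1, 0 in library 3 and 1002 CPM in library 2, and Vsig4, a complement receptor, had 126, 0 and 231 CPM in that order. The list was split, since other genes of it stayed well above 0 in library 3. Over all cells with at least 6 genes, Ccl7 had 2718, 1966 and 2011 CPM in the same order. Clec4n had 426, 230 and 231 CPM. Ccr2, the chemokine receptor of recruited monocytes, had 0 UMIs in library 1, 148 CPM in library 3 and 0 UMIs in library 2. The 10 monocyte genes, Ccr2 among them, summed to 167, 890 and 217 CPM in these cells. In cells with none of the set they summed to 197, 1743 and 708 CPM, in the same order of libraries. The 7 MHC class II genes summed to 17982, 43919 and 14741 CPM in the cells with at least 6 genes of libraries 1, 3 and 2. Over all 31 cells of library 2 with at least 6 genes, those with markers of other types included, class II ran from 0 to 67938 CPM in the 15 cells without Lyve1 and from 0 to 49385 CPM in the 16 with it, so the ranges overlapped.

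**Figure D5:**
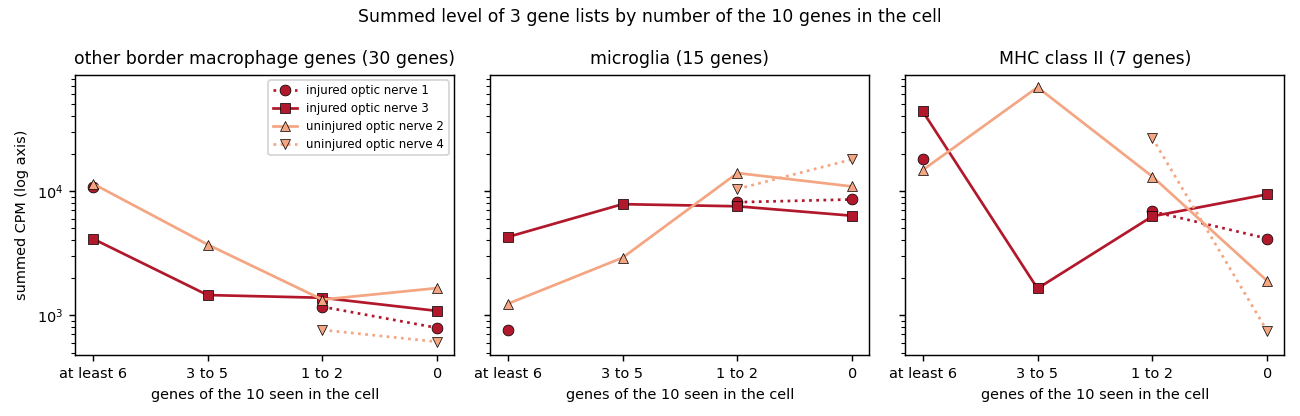
Summed CPM (log axis) of 30 other border macrophage genes, 15 microglia genes and 7 MHC class II genes, by the number of the 10 genes seen in the cell, for the optic nerve libraries. Groups of under 5 cells are not drawn. The border list is highest and the microglia list lowest in cells with at least 6 genes. Among those cells, injured library 3 has the lowest border list and the highest microglia and class II sums.

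Other genes resembled the set in pattern, to a degree that differed between libraries. Over cells of 3 libraries (injured 1 and 3, uninjured 2), the ln value of each of 11248 genes was correlated with the mean of the 10, and the r was averaged over libraries. These r values share cells and depth and are descriptive. Each of the 10 is also part of that mean, which raises its own r, so their values are not comparable with those of other genes. Mrc1 was highest among the 10 at 0.799 and Cd163 lowest of the 9 seen in all 3 libraries at 0.579. Lyve1, with no UMI in library 3, had a mean of 0.687 over the other 2. The 10 closest other genes were the chemokines Ccl7 (0.650) and Ccl2 (0.591), the matrix protein gene Tgfbi (0.564), the histidine ammonia-lyase gene Hal (0.528), the interferon-inducible Mndal (0.524), Ifi207 (0.520) and Ifi203 (0.505), Ms4a6b (0.505), Emp1 (0.489) and the lectin Clec4n (0.484). For these 10, r in library 3 alone ran from 0.228 (Hal) to 0.440 (Ccl7). In library 1 it ran from 0.531 (Clec4n) to 0.877 (Ccl7). Ccl7, Tgfbi and Clec4n were already on the list of other border macrophage genes. Ccl7 was seen in 7 of 8 cells with at least 6 of the genes in injured library 1, in 11 of 18 in injured library 3 and in 21 of 31 in uninjured library 2. Among cells with under 3 of the genes it was seen in 1 of 138, 3 of 520 and 1 of 63, in that order. Those cells were shallower, at medians of 1045.5, 1465 and 1555 UMIs, against 6052.5, 13468 and 5017 in the cells with at least 6.

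Cells with markers of other types were set beside the rest, with free RNA and mixed droplets in mind. Their type was not established, so the oligodendrocyte marker cells in particular cannot measure free RNA. In retina, 0 of the 39 T cell marker cells had a Stab1 UMI at a median of 2569 UMIs per cell, against 32.0% of the remaining retina cells at a median of 10462. Maf, which T cells also use, was seen in 9 of the 39 (23.1%), and the other genes were too rare in retina for this comparison. In library 2, 25 cells carried oligodendrocyte markers at a median of 2549 UMIs, and 28.0% of them had Mrc1, against 45.5% of its 77 remaining cells at a median of 1852 UMIs. Of these 25 cells, 6 held at least 6 of the 10 genes and 18 held under 3. Cbr2 was seen in 32.0% of them, against 28.6% of the remaining cells, and each of the other genes in a lower share. In library 3, 0 of 26 such cells had Mrc1, F13a1, Cbr2, Cd163 or Lyve1, while 26.9% had Pf4 and 23.1% had Dab2, against 36.7% and 40.8% of its 652 remaining cells. How much of the Pf4 and Dab2 shares in library 3 is background was not tested. Endothelial markers summed to 3257 CPM in uninjured library 4, against 69.0 to 265 CPM in the other optic nerve libraries, and in 7 endothelial marker cells Dab2 was seen in 3, Stab1 in 2, Pf4 in 1 and the other 7 genes in 0.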

How the data were processed

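Cells were captured with the 10x Genomics v2 kit, per the series' design text, and processed with bcl2fastq 2.17.1.14, Cell Ranger 1.3 and Seurat 4.0.3 on build mm10, per the submitters' processing notes. For retina cells the authors deposited UMI counts. For optic nerve cells the authors deposited natural log (ln) values, the ln of 1 plus 10000 times the UMI share of the cell. All 1374534 optic nerve values gave whole UMIs within 0.01, so counts were recovered. The 1168 cells equal the stated number, after a stated filter of 200 to 6500 genes per cell. Uninjured retina held no UMI in the later entries of the gene table, and all 10 genes lie among the earlier ones. No doublet caller was run.

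UMIs were summed per library. For injury in retina, edgeR 4.0.16 was used (quasi-likelihood test, TMM, filterByExpr), and the other comparisons with limma 3.58.1 (trend) on mean ln values over 8 libraries, for genes seen in 1% of cells or more and in both tissues. DESeq2 1.42.0 was an alternative. R was 4.3.3, Python 3.11.15 and scipy 1.17.1. Benjamini-Hochberg adjusted p-values were called at 0.05. Both tests were run on simulated library counts, with a spread set in advance and not taken from these libraries. There limma used ln values of summed counts, not mean ln values over cells, so its fits reported here were not checked. Cells with at least 3 of 10 T cell, 5 of 10 oligodendrocyte or 5 of 10 endothelial markers were treated as other types. Shares have exact 95% intervals, and a count of 0 was given a limit of 3 counts.

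All 10 genes are reported in every library. From other lists, at most 4 genes with the smallest p per comparison were named, and the 10 genes most like the set. Genes named by cell group (Folr2, Fcna, Vsig4, Ccr2, Ccl7 and Clec4n) were chosen after their values were seen. The members and lists were chosen with earlier results of these data known.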

Additional observations from a re-analysis of the deposited data

How the results depend on the processing

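No paired analysis was possible because the injured retina columns are pools that carry 2 sample numbers each, and the injured and uninjured groups of a tissue share no number. The number of the 10 genes called lower after injury in optic nerve, 0 with limma, was 2 with edgeR on genes with a UMI in either tissue and 2 with edgeR on optic nerve alone. In retina the 1 call became 0 with DESeq2, 0 with limma and 0 without cells of other types. The interaction went to 1 call with edgeR on either set of genes. For injured tissue, 0 calls became 4 with edgeR and 7 on genes with a UMI in either tissue. For uninjured tissue, 0 became 3 and 7 in the same fits, 1 on log2(CPM + 1), which called 3.05% of all genes, and 3 on log2(CPM + 10), which called 4.49%.

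Leaving out each library gave 0 to 2 calls for injury in optic nerve (0 to 5 with genes of either tissue), 0 to 1 in retina, 0 to 2 for the interaction and 0 to 3 for uninjured tissue (0 to 7). The highest counts for injury in optic nerve, the interaction and uninjured tissue came without uninjured library 4, where 0.161%, 0.0947% and 2.59% of all genes were called (1.38% and 5.39% for injury and uninjured tissue with genes of either tissue). In retina these fits called 8.36% to 14.2% of genes. Each fit without a library leaves an arm of 1, assumed to vary like the others. The 1 call in retina, where there was one, was Ms4a7 in place of Stab1.

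Some differences changed sign, none of them called in the fits reported first. On log2(CPM + 1) and log2(CPM + 10), Dab2 after injury in optic nerve was 0.23 and 0.16, the Stab1 interaction 0.11 and 0.0024, Maf between injured tissues 0.090 and 0.10, and Maf between uninjured tissues 0.45 and 0.45. With edgeR, Maf was 0.28 and 0.29 between injured tissues and 1.05 and 1.04 between uninjured tissues. Without cells of other types, Stab1 between injured tissues was -0.065. Leaving out each library, injury in optic nerve ranged from -0.50 to 0.32 for Dab2, -0.76 to 0.0045 for F13a1, -0.94 to 0.040 for Mrc1 and -0.030 to 0.35 for Ms4a7. The interaction ranged from -0.50 to 0.32 for Dab2, -0.41 to 0.20 for Maf, -0.97 to 0.011 for Mrc1 and -0.32 to 0.28 for Stab1. Between injured tissues the range was -0.0026 to 0.12 for F13a1 and -0.013 to 0.016 for Stab1. Between uninjured tissues it was -0.40 to 0.21 for Maf, -0.16 to 0.22 for Ms4a7 and -0.28 to 0.32 for Stab1. The cause was not tested.

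The share of cells with at least 3 of the genes, injured minus uninjured optic nerve, was -6.59 percentage points. It was 1.09 with at least 2 genes, -13.2 with at least 5, -13.7 after thinning, and -24.2 without uninjured library 4 and 11.05 without uninjured library 2, its lowest and highest when 1 library was left out.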

Other observations

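In uninjured optic nerve library 2, the 8 cells with 3 to 5 of the genes held 68534 CPM of the MHC class II genes, against 1889 CPM in its 29 cells with none of the genes. The same 8 cells held 3707 CPM of the other border macrophage genes, 2901 CPM of the microglia genes and 1257 CPM of the monocyte genes, and Ccr2 stood at 322 CPM (10 UMIs). In injured library 3, cells with 3 to 5 of the genes held 1641 CPM of the MHC class II genes. Neutrophil markers summed to 5752 CPM in the cells of library 2 with none of the genes, against 63.1 CPM in its cells with at least 6.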
